A study of Mus musculus with 5 samples.

Results

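Chst8 and 9 further carbohydrate sulfotransferase genes, Chst1, Chst2, Chst3, Chst4, Chst7, Chst10, Chst11, Chst12 and Chst15, were followed in the uterus of pseudopregnant mice, 10 of the 28666 genes listed. They were taken by gene symbol. Chst8 was chosen by its measured difference between the 2 groups described here, and the other 9 to stand beside it, so the differences between the groups in these 10 genes are given as descriptions. The adjusted p-values and calls printed for them come from the contrast by which Chst8 was chosen and are no independent test. All 10 had at least 10 counts in every library and all 10 were among the 17013 genes tested.

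RNA of whole uteri came from ICR females 6 to 8 weeks old. The aged-SP group (2 libraries, replicates 1 and 4) had been caged with vasectomised C57BL/6 males 12 to 18 months old, and the young-SP group (3 libraries, replicates 1, 2 and 4) with vasectomised C57BL/6 males 12 to 14 weeks old, where SP stands for seminal plasma. The females of both groups had been selected in estrus, carried no embryos, and received the seminal plasma by natural mating. The labels place the uteri 3.5 days after caging and the methods place them at 3.0 days post coitum, with the day of the plug as 0.5. No unmated female entered the comparison, so only the male's age can be contrasted. The comparison asks how the RNA of the uterus before implantation differed with the age of the male.

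Carbohydrate sulfotransferases are Golgi enzymes that move a sulfate group from the donor PAPS onto a sugar of a glycoprotein, proteoglycan or glycolipid. Which sugar and which carbon receives the sulfate sets which lectins, receptors or growth factors can recognise the chain. Chst8 puts sulfate on the terminal GalNAc of N-glycans and is best known from the pituitary, where it acts on luteinizing hormone. In the uterus, sulfated chains are carried by the extracellular matrix of the stroma and by glycoproteins of the epithelial surface.

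Total counts lay between 15071914 and 16728601 per library. Over the 17013 tested genes, young-SP replicate 1 was nearer to the aged-SP mean than to the mean of young-SP replicates 2 and 4 in 43.4%. This share was not computed for the other young-SP libraries. It was nearer in 7 of the 10 sulfotransferases, the exceptions being Chst8, Chst2 and Chst15. Leaving it out raised the genes called by edgeR from 25 to 578, where leaving out young-SP replicate 2 or 4 gave 3 or 2. Values without this library are therefore given beside those with it for each tested Chst gene. They are also given for the named genes of sulfated glycan biology where leaving it out moved the adjusted p across 0.05. For Hpse only the call without it is given. Nothing in the labels says more of the replicates than that they are separate samples, so p-values measure the spread between these samples. In RNA of a whole organ, fewer cells of a type and less RNA per cell cannot be told apart.

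All 14 markers of the uterine epithelium, all 8 of the stroma and all 8 of the myometrium were tested, and none was at 0 in every library. Levels of a gene are given as CPM, its counts after division by the TMM-adjusted library size. Summed over the epithelial list they were 5289 and 4208 against 1163 to 2494, aged-SP first, but the genes of the list did not move together. At an unadjusted p below 0.05 in edgeR, 2 were higher and 2 lower, and Calb1, a calcium-binding protein of the epithelium, had 1688 and 942 counts against 8311, 6743 and 8363. Summed over the stromal list they were 5948 and 7249 against 8034 to 10460. The pituitary list, 2 of whose 7 genes had enough counts to be tested, summed to 1.25 to 2.40 CPM over the 5 libraries. The ovarian list had 3 of 8 genes tested. It summed to 68.1 and 76.0 CPM in the aged-SP group and 21.8 to 42.7 CPM in the young-SP group. Its member Akr1c18, an enzyme that inactivates progesterone, had counts of 531 and 80 against 3, 0 and 2. Akr1c18 alone made up 32.1 and 5.12 CPM of the aged-SP sums. Star, on the same list, had 497 and 1021 counts against 353, 277 and 563, and its groups overlapped. Of 16 tested genes of the progesterone response, edgeR gave 11 an unadjusted p below 0.05, with 1 higher and 10 lower in aged-SP uteri, where 19% of all tested genes had such a p. Summed over the estrogen response list, with 12 of 14 genes tested, the level was 10505 and 9882 CPM in aged-SP uteri, 9691 in young-SP replicate 1, and 1760 and 2159 in young-SP replicates 2 and 4. In this sum young-SP replicate 1 thus lay with the aged-SP libraries, but the genes of the list did not move together. At an unadjusted p below 0.05 in edgeR, 2 were higher and 1 lower. Greb1 had 40.9 and 60.2 CPM against 17.5, 14.8 and 10.6, and Igf1 had 389 and 357 against 614, 945 and 637. In both of these genes young-SP replicate 1 lay on the young-SP side. The groups did not overlap in the epithelial, stromal, ovarian, progesterone or estrogen sums, though young-SP replicate 1 lay only just below the aged-SP libraries in the estrogen sum. The part of these differences in the sulfotransferase values was not tested.

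The members fell into sequence classes. Translated coding sequences of Chst8, Chst10, Chst11 and Chst12 (with Chst9, Chst13 and Chst14 from the rest of the family) shared 27.0% to 50.4% of their residues, and those of Chst1, Chst2, Chst3, Chst4 and Chst7 (with Chst5) shared 27.2% to 52.4%. Chst15 stood alone, and identity between classes was at most 11.5%. These shares are of the length of the shorter sequence, and gaps at the ends were not penalised. Pairs from different classes were therefore aligned over only part of their length, such as 171 residues for Chst7 and Chst8 and 2 for Chst8 and Chst15. Chst8, with 417 residues, was closest to Chst9 at 50.4%, followed among the members by Chst11 at 36.1%, Chst12 at 33.1% and Chst10 at 32.9%. Only 0.0333% of the 50-base stretches of Chst8 transcripts occurred in another gene, and the share was at most 0.532% in any member, so few reads could be split between paralogs. The gene lies on the minus strand at chr7:34674468-34812711 (GRCm38), spans 138 kb and has 4 exons in its coding transcript, 3 of them coding.

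The windows of 250 bases before the start are shown for Chst8 and for Chst15, Chst2 and Chst10, the members in which the aged-SP and young-SP libraries did not overlap, so that the upstream sequence can be read beside the values. They are RefSeq promoter windows of GRCm38.p6, printed 5′ to 3′ on the gene's strand (minus for each), and capitals mark the GC box, GGGCGG or its reverse complement.
Chst8, chr7:34812712-34812961: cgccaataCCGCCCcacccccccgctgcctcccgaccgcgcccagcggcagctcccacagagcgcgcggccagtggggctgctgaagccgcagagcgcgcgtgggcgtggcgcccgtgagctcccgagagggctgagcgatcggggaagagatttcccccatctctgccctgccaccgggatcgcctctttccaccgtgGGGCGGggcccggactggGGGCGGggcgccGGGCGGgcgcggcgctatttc
Chst15, chr7:132317229-132317478: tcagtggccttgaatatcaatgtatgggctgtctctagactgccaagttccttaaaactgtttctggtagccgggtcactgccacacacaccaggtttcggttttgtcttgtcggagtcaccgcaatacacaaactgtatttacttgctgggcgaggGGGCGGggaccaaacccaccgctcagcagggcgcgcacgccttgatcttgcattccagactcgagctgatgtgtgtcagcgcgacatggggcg
Chst2, chr9:95407271-95407520: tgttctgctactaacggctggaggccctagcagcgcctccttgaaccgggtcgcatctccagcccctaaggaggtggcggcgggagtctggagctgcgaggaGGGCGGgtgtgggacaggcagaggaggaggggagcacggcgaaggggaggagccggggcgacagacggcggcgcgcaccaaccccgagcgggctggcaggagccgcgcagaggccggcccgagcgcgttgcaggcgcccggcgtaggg
Chst10, chr1:38898161-38898410: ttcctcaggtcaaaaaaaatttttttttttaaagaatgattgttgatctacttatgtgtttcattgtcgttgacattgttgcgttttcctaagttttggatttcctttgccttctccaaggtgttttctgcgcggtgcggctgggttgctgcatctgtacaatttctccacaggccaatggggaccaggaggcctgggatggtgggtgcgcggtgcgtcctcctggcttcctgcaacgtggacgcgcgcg

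The Chst8 window held 32 CG pairs, percentile 96 of the 32851 RefSeq windows, where the median window held 6. Its GC content was 75.6%, against a median of 52.4%, and it held 4 GC boxes. Chst15 had 14 CG pairs and 1 GC box in the window printed, Chst2 had 27 and 1, and Chst10 had 13 and 0. A further RefSeq window of Chst15, not printed, held 20 CG pairs and 1 GC box. The RefSeq start of Chst2 lay upstream of the gene start in the files. A GC box was found in 7 of the 10 members and in 32.7% of all windows, and a CCAAT box (CCAAT) in 4 of 10 and in 33.8%. TATAAA was found in 0 of 10 and in 12.4% of all windows. The half-site TGTTCT of the progesterone and glucocorticoid receptors was found in 1 of 10, Chst2, and in 16.1%, and the estrogen receptor half-site GGTCA in 3 of 10, Chst4, Chst10 and Chst15, and in 35.2%. Both strands were searched, and a CG pair inside a GC box was counted under both. A member counted as matched if any of its windows matched, while the shares of all windows are per window. In Chst15, GGTCA lay only in the window printed. The motifs were chosen after the expression values were known and the matches only describe the letters of these windows.

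Chst8 RNA was present at 133 and 94 counts in aged-SP replicates 1 and 4 and at 16, 16 and 11 counts in young-SP replicates 1, 2 and 4. Both aged-SP libraries were above all 3 young-SP libraries, and young-SP replicate 1 lay with the other young-SP libraries. In CPM the level was 7.03 ± 1.43 (SD, n = 2) with aged SP and 0.894 ± 0.141 (SD, n = 3) with young SP. The fitted log2 fold change, aged-SP over young-SP, was 2.96 with a standard error of 0.27, or 7.79-fold, and it was 3.04 without young-SP replicate 1. In absolute size this was rank 188 among the 17013 tested genes, and 1.11% of them had a change at least as large.

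In the contrast by which it was chosen, Chst8 had an adjusted p of 0.0484 (edgeR, quasi-likelihood, Benjamini-Hochberg over all tested genes), just inside the threshold of 0.05. A call also needed a log2 fold change beyond 1 in either direction. Chst8 was the 1 member of 10 called, where 0.147% of all tested genes were called, 0.0823% as higher and 0.0647% as lower in aged-SP uteri. The smallest edgeR adjusted p among the other 9 was 0.126, for Chst15. DESeq2 called the same member alone, where it called 3.6% of all genes with an adjusted p. The DESeq2 adjusted p was also under 0.05 for Chst2 (0.0141) and Chst15 (0.0293). Their log2 fold changes there, −0.82 and 0.66, were below 1 in absolute size. With limma-voom 0 of the 10 were called, where it called 0.159% of all tested genes. The call of Chst8 depended on the libraries: leaving out aged-SP replicate 1 gave an adjusted p of 0.240, leaving out aged-SP replicate 4 gave 0.0747, and leaving out young-SP replicates 1, 2 or 4 gave 0.0204, 0.196 or 0.214. The log2 fold change stayed between 2.73 and 3.16 over these fits.

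**Figure D1:**
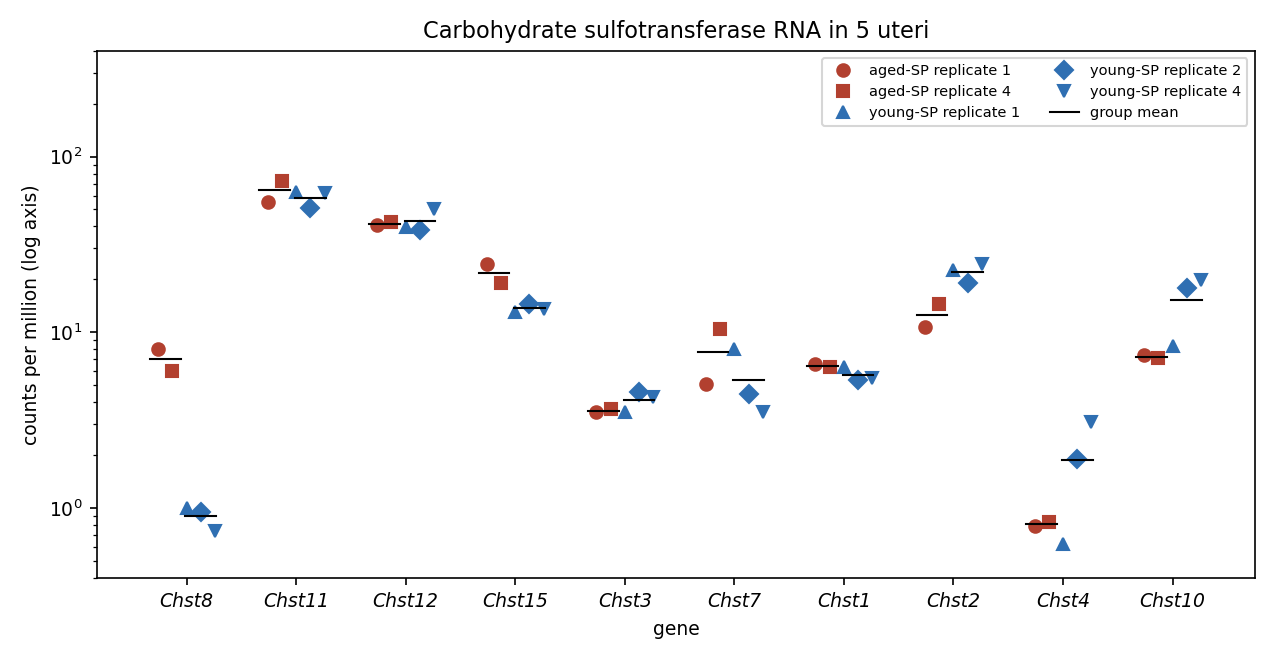
CPM of the 10 sulfotransferases, on a log axis, with 1 symbol per library and a bar at each group mean. Chst8 is the member with the widest gap between the aged-SP libraries (6.01 and 8.04 CPM) and the young-SP libraries (0.734 to 1.0 CPM).

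Over the whole set of 10, the groups did not overlap in 4, with the aged-SP libraries above in Chst8 and Chst15 and below in Chst2 and Chst10. The groups did not overlap in 38.8% of all tested genes. Without young-SP replicate 1 they did not overlap in 8 of 10, where the share of all tested genes was 55.4%. Of the 9 paralogs, 4 had a positive and 5 a negative log2 fold change. The median over the 10 members was 0.049, beside 0.0072 over all tested genes.

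**Figure D2:**
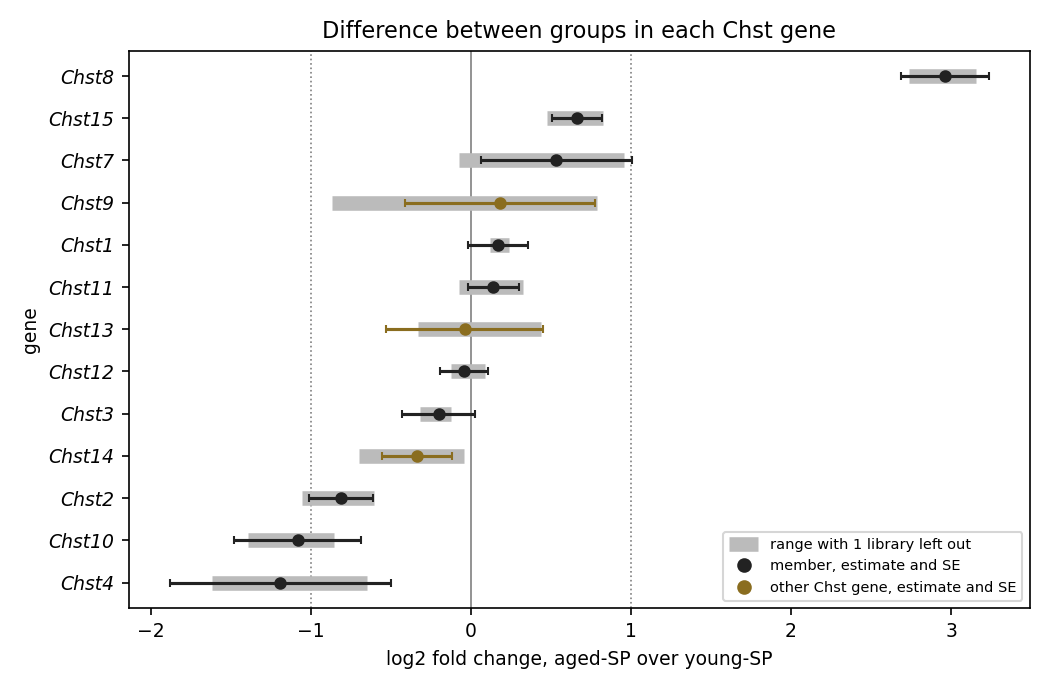
Log2 fold change, aged-SP over young-SP, of the 13 tested Chst genes with its standard error as a bar, and the range of the estimates with 1 library left out in grey. Chst8, at 2.96, lies apart from the other 12, which run from −1.19 to 0.66.

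Of the 5 members that sulfate chondroitin, 4 had overlapping groups, where the groups did not overlap in 38.8% of all tested genes. Chst11, which puts sulfate on carbon 4 of GalNAc in chondroitin and shares 36.1% of its residues with Chst8, had counts of 917 and 1142 in aged-SP uteri and 1000, 858 and 923 in young-SP uteri. The groups overlapped, with a log2 fold change of 0.14 (SE 0.16), and 0.18 without young-SP replicate 1. Chst12, a further chondroitin 4-O-sulfotransferase, had counts of 673 and 662 against 638, 642 and 756. Its log2 fold change was −0.043 (SE 0.15), or −0.10 without that library, and the aged-SP values lay within the range of the young-SP values in CPM.

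Chst15, which adds a sulfate on carbon 6 to a GalNAc already sulfated on carbon 4, had counts of 402 and 298 in aged-SP uteri and 209, 245 and 203 in young-SP uteri. Both aged-SP libraries were above all 3 young-SP libraries. The CPM was 21.7 ± 3.71 (SD, n = 2) against 13.7 ± 0.717 (SD, n = 3), a log2 fold change of 0.66 (SE 0.16), and 0.62 without young-SP replicate 1. An exon of Chst15 overlaps Gm10584 on the opposite strand. Reads of the pair cannot be told apart where the counting did not use strand, and Gm10584 itself was given 0 to 2 counts per library.

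Chst3 and Chst7, which sulfate chondroitin on carbon 6 of GalNAc, differed from each other in their spread. Chst3 had 58 and 57 counts in aged-SP uteri and 56, 77 and 64 in young-SP uteri, with overlapping groups and a log2 fold change of −0.20 (SE 0.23), and −0.32 without young-SP replicate 1. Chst7 had 84 and 163 counts against 129, 75 and 53. Here aged-SP replicate 4 and young-SP replicate 1 were the highest libraries and the groups overlapped. The log2 fold change was 0.53 (SE 0.47), 0.94 without young-SP replicate 1 and −0.075 without aged-SP replicate 4.

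Of the members that sulfate carbon 6 of galactose or GlcNAc, Chst1, the keratan sulfate galactose 6-O-sulfotransferase, was even across the libraries. Its counts were 109 and 99 in the aged-SP group and 102, 91 and 82 in the young-SP group, with a log2 fold change of 0.17 (SE 0.19), and 0.24 without young-SP replicate 1. Chst2, a GlcNAc 6-O-sulfotransferase that helps build the glycans bound by L-selectin, had 176 and 227 counts in the aged-SP group and 363, 324 and 367 in the young-SP group. All 3 young-SP libraries were above both aged-SP libraries, replicate 1 included. The CPM was 12.6 ± 2.74 (SD, n = 2) against 22.1 ± 2.72 (SD, n = 3), a log2 fold change of −0.81 (SE 0.20), or 1.76-fold lower in the aged-SP group. It was −0.81 also without young-SP replicate 1.

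Chst4, which acts on the same kind of glycan in lymph node vessels, had only 13 and 13 counts in aged-SP uteri and 10, 32 and 46 in young-SP uteri. Young-SP replicate 1 was the lowest of the 5 and the groups overlapped. The log2 fold change was −1.19 (SE 0.69) and −1.62 without that library. Chst10, which makes the HNK-1 epitope by sulfating glucuronic acid, had 122 and 111 counts in aged-SP uteri and 133, 301 and 298 in young-SP uteri. Young-SP replicate 1 lay just above the aged-SP libraries and far from the other young-SP libraries. The log2 fold change was −1.08 (SE 0.40) with all 5 libraries and −1.39 without young-SP replicate 1. In that fit the call rule took in Chst10 beside Chst8, and 3.45% of all tested genes. This is a description only, since the library left out is the young-SP library nearest to the aged-SP values of this gene.

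Of the 4 other genes of the family, 3 had enough counts to be tested. Chst9, the nearest relative of Chst8 and also a GalNAc-4-O-sulfotransferase of N-glycans, had 14 and 42 counts in aged-SP uteri and 36, 18 and 20 in young-SP uteri. The groups overlapped, with a log2 fold change of 0.18 (SE 0.59), and 0.54 without young-SP replicate 1. The counts of Chst8 and Chst9 together were 147 and 136 against 52, 34 and 31. Chst13, a chondroitin 4-O-sulfotransferase, had a log2 fold change of −0.039 (SE 0.49), and 0.44 without young-SP replicate 1, and Chst14, its dermatan counterpart, a log2 fold change of −0.34 (SE 0.22), and −0.40 without that library. Chst5 had too few counts to be tested, with 4 and 1 counts in aged-SP uteri and 0 in each young-SP uterus.

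Levels were compared between genes in FPKM, which divides by gene length. The mean FPKM over the 5 libraries ran from 17.9 for Chst12 and 10.96 for Chst11, through 2.85 for Chst7, 2.50 for Chst2, 2.50 for Chst15 and 2.25 for Chst1, to 1.01 for Chst10, 0.632 for Chst4, 0.599 for Chst3 and 0.558 for Chst8. Chst12 and Chst11, both 4-O-sulfotransferases of chondroitin, were thus the most abundant members. Chst8 was last in this mean and in each young-SP library, while in both aged-SP libraries (1.33 and 1.01 FPKM) it lay above Chst3, Chst4 and Chst10. Of the 9 pairs of neighbours in this order, 4 were separated in 5 of 5 libraries: Chst12 above Chst11, Chst11 above Chst7, Chst1 above Chst10 and Chst10 above Chst4. For these the exact two-sided sign-flip permutation test gave p = 0.0625, the smallest that 5 libraries allow, so this design cannot reach 0.05 (Benjamini-Hochberg adjusted p = 0.141 over the 9 pairs). The other 5 pairs changed places between libraries, Chst3 and Chst8 among them.

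Chst8 was the member whose FPKM varied most over the 5 libraries, which its choice by the difference between the groups favours. Its lowest and highest values, 0.122 and 1.33 FPKM, were 10.9-fold apart, and the coefficient of variation was 102%. Within the young-SP group Chst8 ran only from 0.122 to 0.166 FPKM, where Chst4 ran from 0.272 to 1.34. In the other 9 members the highest library was 1.20-fold to 4.92-fold above the lowest, with Chst1 the steadiest and Chst4 the most variable. Among the 10 members Chst8 ranked 7 by FPKM in both aged-SP libraries and 10 in all 3 young-SP libraries.

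The summed FPKM of the 10 genes was 39.5 and 45.4 in aged-SP uteri and 40.6, 38.0 and 45.0 in young-SP uteri, so the family total overlapped between the groups. Within that total Chst8 made up 3.38% and 2.21% in aged-SP uteri and 0.410%, 0.426% and 0.272% in young-SP uteri. Chst12 made up 39.3% to 47.2% and Chst11 24.6% to 29.0% over all 5 libraries. The FPKM of Chst11 was 7.44 and 13.1 times that of Chst8 in aged-SP uteri and 67.5, 57.9 and 90.6 times in young-SP uteri.

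**Figure D3:**
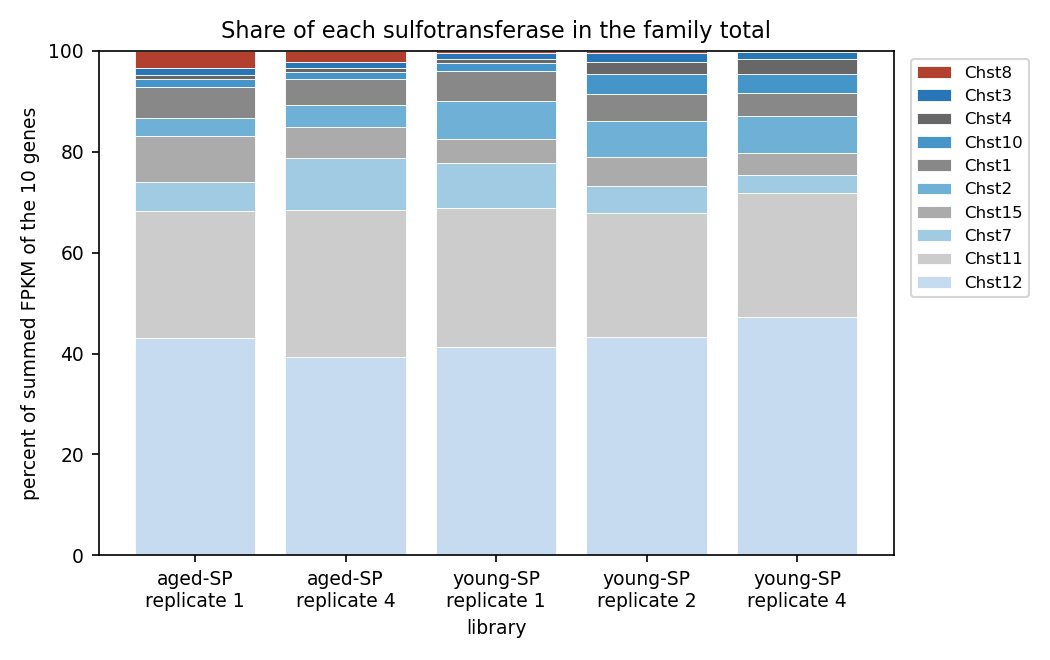
Share of each of the 10 sulfotransferases in their summed FPKM, in percent, 1 bar per library, with Chst8 in red at the top. Chst12 and Chst11 fill most of every bar, and the Chst8 share is 2.21% and 3.38% in the aged-SP bars and at most 0.426% in the young-SP bars.

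Other genes of sulfated glycan biology were read from 10 lists that cover the rest of the Chst family, sulfate supply, chain synthesis, breakdown and carrier proteins. Of their 136 genes, 132 were in the files and 106 were tested. By the same rule edgeR called 0 of the 106. Before adjustment, 27 of them (25.5%) had a p below 0.05, 11 higher and 16 lower, where 19% of all tested genes did, 9.62% higher and 9.36% lower. DESeq2 called 6 of 107 and limma-voom called 0. The 6 were Slc26a1 and Hs3st3b1, higher, and Col18a1, Vcan, Sorl1 and Gpc6, lower. Without young-SP replicate 1 edgeR called 5: Hpse, higher, and Col18a1, Vcan, Chsy1 and Sorl1, lower.

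Of the genes listed for the GalNAc-4-sulfate pathway, which make, carry or read this glycan, 5 of 11 were tested. At an unadjusted p under 0.05, 0 were higher and 1 was lower. The list median was −0.26, the value of Tshb, a gene with only 8 to 27 counts. Mrc1, also on this list, had 1276 and 1844 counts against 2354, 1617 and 1841. Its groups overlapped, with a log2 fold change of −0.32 (SE 0.25). The lower gene was Sorl1, whose product is a sorting receptor that can carry this glycan. It had 802 and 618 counts in aged-SP uteri and 1219, 2550 and 3061 in young-SP uteri, a log2 fold change of −1.71 (SE 0.43) and an adjusted p of 0.136 in edgeR. The adjusted p was 0.0184 without young-SP replicate 1. B4galnt4, which makes the GalNAc-GlcNAc end on which Chst8 acts, had 189 and 122 counts against 89, 130 and 89, with a log2 fold change of 0.59 (SE 0.26) and an adjusted p of 0.295. B4galnt3, which makes the same end, had 1 to 4 counts and was not tested, nor was Lhb, the subunit of luteinizing hormone, with 0 to 3.

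Of the sulfate donor genes, 8 of 11 were tested. Both genes with an unadjusted p under 0.05, Slc26a1 and Papss2, were higher in the aged-SP group, and the list median was 0.012. Slc26a1, a sulfate anion transporter, had 371 and 81 counts in aged-SP uteri and 18, 19 and 21 in young-SP uteri. The groups did not overlap, but aged-SP replicate 1 was far above replicate 4. The log2 fold change was 3.50 (SE 0.63) with an adjusted p of 0.0871 in edgeR. It was 2.08 (adjusted p = 0.240) without aged-SP replicate 1 and 4.20 (adjusted p = 0.0291) without aged-SP replicate 4, so its size depended on which aged-SP library was kept. Papss2, a synthase of the donor PAPS, had 209 and 157 counts against 113, 111 and 102, a log2 fold change of 0.73 (SE 0.18) and an adjusted p of 0.132.

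Genes of the chondroitin and dermatan chain, on which Chst3, Chst7, Chst11, Chst12 and Chst15 act, were all 16 tested. At an unadjusted p under 0.05, 1 was higher and 3 were lower, and the median was −0.14. Chsy1, a chondroitin polymerase, had 572 and 569 counts in aged-SP uteri and 650, 1275 and 1087 in young-SP uteri. Young-SP replicate 1 again lay near the aged-SP libraries, and the log2 fold change was −0.82 (adjusted p = 0.216 in edgeR) with it and −1.07 (adjusted p = 0.0175) without it. Xylt2, which starts the chain, had a log2 fold change of −0.35 (SE 0.10, adjusted p = 0.158).

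Of the proteins that carry these chains, 11 of 17 chondroitin sulfate core proteins were tested, with 1 higher and 1 lower at an unadjusted p under 0.05 and a median of −0.22. Vcan, the matrix proteoglycan versican, had 1168 and 559 counts in aged-SP uteri and 3925, 3649 and 3898 in young-SP uteri. The 3 young-SP libraries lay close together and above both aged-SP libraries, with a log2 fold change of −2.18 (SE 0.31) and an adjusted p of 0.0734 in edgeR. Without young-SP replicate 1 it was −2.17 (adjusted p = 0.0381). The higher gene was Thbd, the anticoagulant receptor thrombomodulin, with 2800 and 2816 counts against 1562, 2157 and 2260, groups that did not overlap, and a log2 fold change of 0.48 (SE 0.19, adjusted p = 0.257). Among the 12 tested heparan sulfate core proteins, 0 were higher and 3 lower at that level, with a median of −0.077. Col18a1, a basement membrane collagen, had a log2 fold change of −1.24 (SE 0.24, adjusted p = 0.0957), and −1.43 (adjusted p = 0.0217) without young-SP replicate 1. Gpc6, a glypican, had a log2 fold change of −1.14 (SE 0.21, adjusted p = 0.0903).

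Of 20 tested genes of the heparan sulfate chain, 2 were higher and 2 lower at an unadjusted p under 0.05, with a median of −0.069. Hs3st3b1, a heparan 3-O-sulfotransferase, had 239 and 206 counts in aged-SP uteri and 116, 108 and 64 in young-SP uteri. The groups did not overlap, and the log2 fold change was 1.21 (SE 0.26) with an adjusted p of 0.108 in edgeR. Hpse, the heparanase that cuts these chains, had 480 and 404 counts against 340, 143 and 170, with an adjusted p of 0.253, and was called by edgeR without young-SP replicate 1, the library with the highest young-SP count. Glce, the epimerase of heparan glucuronic acid, had a log2 fold change of −0.74 (SE 0.12, adjusted p = 0.0760), and −0.84 (adjusted p = 0.0245) without young-SP replicate 1. Of the glycan sulfotransferases outside the Chst and heparan groups, Gal3st1 was the 1 of 6 tested, with a log2 fold change of 0.086 (SE 0.31).

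Of 13 tested genes for keratan sulfate, HNK-1 and L-selectin ligands, the glycans of Chst1, Chst2, Chst4 and Chst10, 0 were higher and 4 lower at an unadjusted p under 0.05, with a median of −0.23. Gcnt1, a branching enzyme of O-glycans, had 475 and 651 counts in aged-SP uteri and 859, 995 and 1020 in young-SP uteri, with a log2 fold change of −0.78 (SE 0.20, adjusted p = 0.139 in edgeR). B4galt4, a galactosyltransferase of keratan sulfate, had −0.49 (SE 0.12, adjusted p = 0.134). Of 17 genes for the breakdown of sulfated chains, 5 were higher and 2 lower, with a median of 0.097. Sgsh, a lysosomal sulfatase of heparan, had a log2 fold change of −0.73 (SE 0.17, adjusted p = 0.119 in edgeR).

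**Figure D4:**
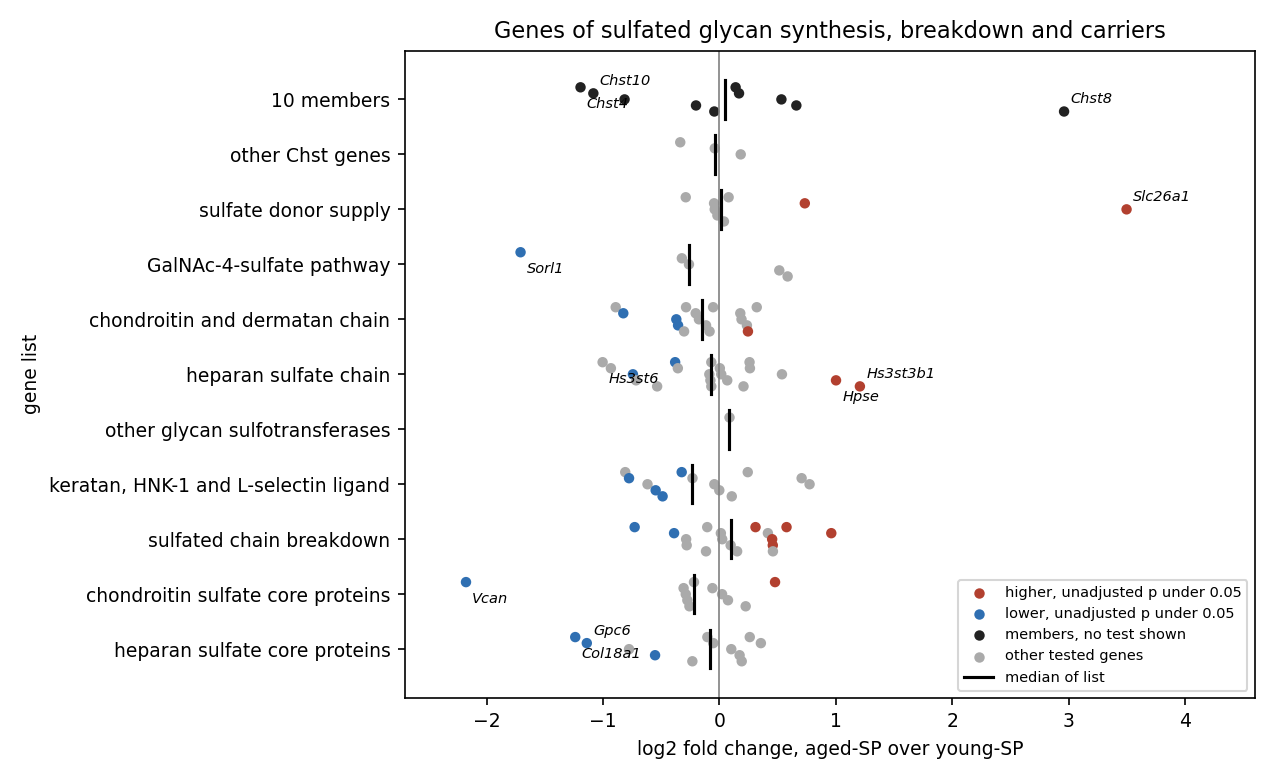
Log2 fold change, aged-SP over young-SP, of each tested gene by list, with the list median as a vertical bar and genes beyond 1 in absolute size named. Members are drawn in black with no test, and Slc26a1 (3.50) and Chst8 (2.96) lie farthest to the right while Vcan (−2.18) and Sorl1 (−1.71) lie farthest to the left.

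The genes whose pattern was most like that of Chst8 were found by the root mean square difference of their centred log2 CPM over the 5 libraries, among 13433 genes with a mean of at least 50 counts. The closest were Ggt1, a gamma-glutamyltransferase, with a difference of 0.326, and Dscam, a neuronal adhesion molecule, with 0.329. They were followed by 1700028P14Rik at 0.365, Olfm1, a secreted glycoprotein, at 0.367, and Derl3, a protein of the endoplasmic reticulum, at 0.369. Dscam had 161 and 119 counts in aged-SP uteri and 32, 32 and 25 in young-SP uteri. Olfm1 was far more abundant, with 6227 and 2913 counts against 933, 820 and 856. In all 5 genes both aged-SP libraries were above all 3 young-SP libraries, which the search for likeness to Chst8 selects for. Of the genes of sulfated glycan biology the nearest was Slc26a1, at rank 28.

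**Figure D5:**
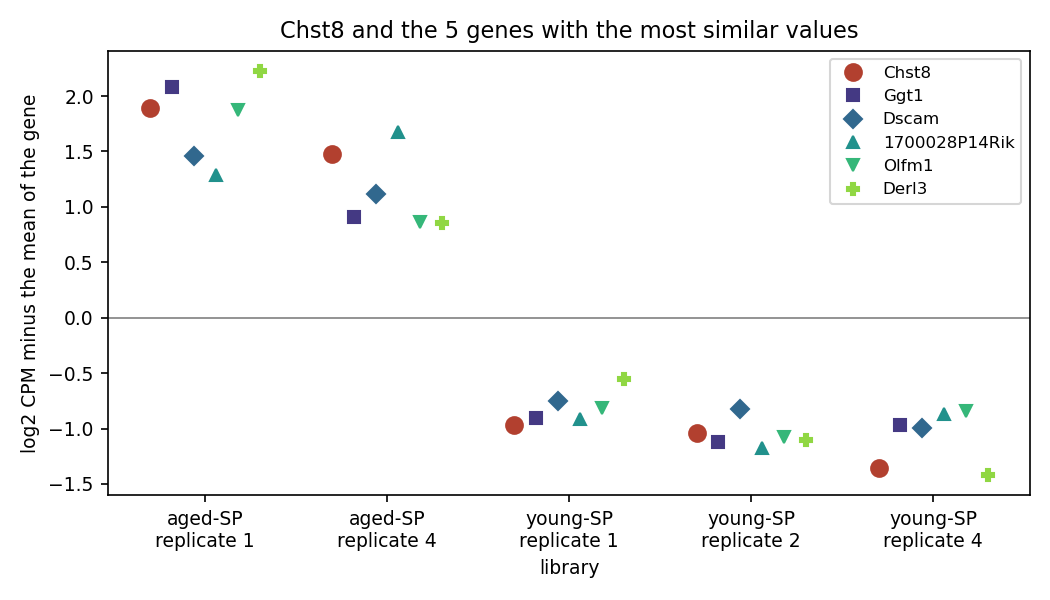
Log2 CPM minus the mean of each gene in the 5 libraries, for Chst8 and the 5 genes with the smallest root mean square difference from it. All 6 lie above 0 in aged-SP uteri and below 0 in young-SP uteri, and young-SP replicate 1 lies with the other young-SP libraries.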

How the data were processed

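RNA-seq of 5 mouse uteri was used. The deposited counts per gene are unnormalized, and the authors made them from filtered reads aligned by HISAT2 2.1.0; the tools listed in their processing notes also include Bowtie2 2.2.3 and HTSeq 0.6.0. The genome build and strand setting are not given in the sources used here; positions of the members match GENCODE M21 on GRCm38. The deposited FPKM values are these counts over gene length and library total (100% of values checked) and served only to compare levels. The library kit was NEBNext Ultra. The authors also excluded a young-SP library that clustered apart. The deposited table holds the authors' own mean signal, log2 fold changes, p-values and adjusted p-values, which were not used. Columns T and C were assigned to groups through the header of the table deposited with each labelled sample, and 0 columns of values per sample were left unused.

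Counts were fitted with edgeR 4.0.16 in R 4.3.3 (filterByExpr, TMM factors 0.990 to 1.02, glmQLFit and glmQLFTest, no block). A gene was called at a Benjamini-Hochberg adjusted p under 0.05 over 17013 genes and an absolute log2 fold change over 1. Log2 CPM had a prior count of 2. Standard errors of the edgeR log2 fold changes were worked back as the absolute log2 fold change over the square root of the quasi-likelihood F statistic. DESeq2 1.42.0, limma 3.58.1 (voom), other scalings and filters, a replicate block and each library left out were alternatives. The fits were tested on simulated data. Named genes were the members, the other Chst genes, the 2 genes of each list with the smallest p, and the 5 most like Chst8. Hpse, B4galnt3, Lhb, Mrc1 and Tshb were added after their values were seen. A gene that this rule selects is not reported here. The members and lists were chosen with earlier results of these data known. Coding identity (Biopython 1.88) used translated GENCODE M21 sequences in place of the planned RefSeq proteins. Counting error limits Chst4 and Chst8 most, and depth was similar in all libraries.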

Additional observations from a re-analysis of the deposited data

How the results depend on the processing

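Chst8 kept its direction in all fits, with log2 fold changes between 2.73 (without aged-SP replicate 1) and 3.16 (without aged-SP replicate 4). Its call was lost with DESeq2 size factors (2.96, adjusted p = 0.0513), limma-voom (2.93, adjusted p = 0.0542), the replicate block (3.01, adjusted p = 0.148) and on leaving out any library other than young-SP replicate 1, and it was kept with library size alone (0.0495), with DESeq2 (1.39e-09), with no filter (0.0140), with at least 10 counts in every library (0.0497) and with legacy = FALSE in glmQLFit (0.0461), an alternative chosen after seeing the data. The members called, 1 in edgeR, were 0 with DESeq2 size factors, voom and the replicate block, and 0 to 2 with 1 library left out (2 without young-SP replicate 1). All genes called, 25 in edgeR, were 632 with DESeq2, 203 with no filter, 2 with the replicate block and 1 to 578 with 1 library left out: 1 without aged-SP replicate 1, 49 without aged-SP replicate 4, and 578, 3 and 2 without young-SP replicates 1, 2 and 4. Genes of the other lists called, 0 in edgeR, were 6 with DESeq2, 3 with no filter, and 0 to 5 with 1 library left out (2 when it was aged-SP replicate 4 and 5 when it was young-SP replicate 1). The paralogs with a positive fold change, 4 in edgeR, were 2 to 5 with 1 library left out (2 without aged-SP replicate 4). The 4 separated neighbours in the order of levels were 3 to 4. The libraries shared 2 replicate numbers, whose deviations correlated at 0.152 and 0.136. The deviations of the 2 aged-SP libraries from their mean mirror each other, so these values are not separate checks of pairing. No label ties the numbers to a batch, so they were not treated as pairs. Small differences changed sign when 1 library was left out: Chst7 (−0.075 to 0.96), Chst11 (−0.072 to 0.32), Chst9 (−0.87 to 0.79) and Chst13 (−0.33 to 0.44) without aged-SP replicate 4, Chst12 (−0.12 to 0.085) and Gal3st1 (−0.084 to 0.35) without young-SP replicate 4, Chst9 also on leaving out young-SP replicate 2, and Chst13 replicate 1 of that group. Chst9 also changed sign under the replicate block (−0.16) and Chst13 with voom (0.084). Of 377 further values for 29 single genes, 351 kept their direction and their side of the call rule. A further 16 met the call rule only under an alternative and 10 changed sign. That rule joins the adjusted p with an absolute log2 fold change over 1. An adjusted p could thus cross 0.05 and the value still count as kept, as for Chst2, Chst15 and Glce with DESeq2. The cause of the changes was not tested. Without an aged-SP library the other is assumed to vary like the young-SP libraries.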
